A study of Mus musculus with 6 samples.

Results

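Cardiac myosin, the motor of the thick filament, is built from 2 kinds of subunit, and the genes described here were its 6 chains in mouse heart. The heavy chains were Myh6 (ENSMUSG00000040752) and Myh7 (ENSMUSG00000053093). The light chains were Myl2 (ENSMUSG00000013936), Myl3 (ENSMUSG00000059741), Myl4 (ENSMUSG00000061086) and Myl7 (ENSMUSG00000020469). They were chosen as a fixed list of Ensembl identifiers, with symbols given in the order of the list, and they made up 6 of the 48505 genes and 980 of the 5193362 windows in the tables. A window is a stretch of a gene, named by its start, over which immunoprecipitated reads had been counted. The rule itself uses no measured value.

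The study asked whether inhalation of titanium dioxide nanoparticles (nano-TiO2) during pregnancy changed N6-methyladenosine (m6A), a methyl mark on RNA bases, in the hearts of the offspring. The 3 nano-TiO2 libraries came from fetal hearts of wild type FVB/NJ dams that breathed an aerosol with a target of 12 mg/m3 for 360 minutes a day, and the 3 sham libraries from fetal hearts of dams of the same strain and genotype that breathed filtered air. Exposure began on gestational day 5 and took 6 non-consecutive days within 8 days, and hearts of male and female fetuses were collected on gestational day 15 and pooled. Dams were 10 weeks old and numbered 14 in the study. Every library was made from whole-heart RNA fragments bound by a polyclonal antibody against m6A, so each value below is an amount of immunoprecipitated (IP) RNA, which follows both the abundance of a transcript and how much of it carries the mark. The input libraries that the labels describe were not used here. How litters were allotted to pools is not stated in the labels. The p-values therefore measure only the spread between these 6 samples, which may be technical.

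Heavy chains carry the ATPase and the actin-binding head of myosin. Myh6 encodes the alpha chain, the fast form that dominates adult mouse heart and the fetal atria, and Myh7 the slower beta chain, the main form of the fetal mouse ventricle. Each heavy chain binds a regulatory and an essential light chain at its lever arm. Myl2 is the ventricular regulatory chain and Myl7 the atrial regulatory chain. Myl3 is the ventricular essential chain, also made in slow skeletal muscle, and Myl4 the atrial essential chain, which is also made in embryonic muscle.

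Sequence upstream of the annotated start is shown for the chains with 1 listed start, because 2 of them (Myl3 and Myl4) were called lower in IP level and the other two did not pass that test, and a reader may want to set these promoters side by side. The sequences are the 100 bases before the RefSeq start, from the GRCm38.p6 build, read 5′ to 3′ along the gene. Those of Myh6 lay at chr14:54966608-54966707 on the minus strand, of Myl3 at chr9:110763578-110763677 on the plus strand, of Myl4 at chr11:104550563-104550662 on the plus strand and of Myl7 at chr11:5898783-5898882 on the minus strand. Capitals mark matches, searched on both strands, to the TATA box (TATAAA), the E-box (CANNTG), the TEAD motif (CATTCC), the CArG box or the MEF2 site, none of which overlapped another here.
Myl3: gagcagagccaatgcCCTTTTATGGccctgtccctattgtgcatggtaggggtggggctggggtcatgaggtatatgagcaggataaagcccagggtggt
Myl4: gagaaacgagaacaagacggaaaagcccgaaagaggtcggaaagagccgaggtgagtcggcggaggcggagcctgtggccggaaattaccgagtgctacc
Myl7: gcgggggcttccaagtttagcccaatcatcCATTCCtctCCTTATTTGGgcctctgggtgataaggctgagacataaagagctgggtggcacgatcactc
Myh6: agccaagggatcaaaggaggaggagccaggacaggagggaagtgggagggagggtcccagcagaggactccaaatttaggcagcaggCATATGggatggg
The promoters of Myl3 and Myl7 each held 1 CArG box, the sequence bound by serum response factor, which was found in 0.615% of 32851 RefSeq promoter windows of the same length. Myl7 also had 1 TEAD motif, present in 4.71% of promoters. Myh6 had 1 E-box, the letters bound by basic helix-loop-helix factors, present in 34.5%. The TATA box was found in 5.56% of promoters and the MEF2 site in 0.992%, and neither was in these 4 windows. Myl4 matched none of the motifs. Myh7 and Myl2 have 2 listed starts each. These matches describe the letters only, and promoter activity was not measured in this study.

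Libraries held 20205024 to 28251706 reads in the nano-TiO2 group and 22151447 to 31523675 in the sham group. All 6 chains were among the most abundant IP signals of the tissue: of 18566 tested genes, Myh7 ranked 6, Myh6 ranked 7, Myl3 ranked 17, Myl2 ranked 26, Myl7 ranked 54 and Myl4 ranked 68 by summed signal. Together they took 2.47%, 2.63% and 2.68% of reads in nano-TiO2 libraries, against 2.25%, 2.07% and 2.28% in sham libraries. The 4 most read genes of the tables took 8.03% to 18.0% of reads in nano-TiO2 libraries and 20.6% to 35.2% in sham libraries. Results under a scaling that leaves these genes out are given with the deposited one below. Markers of other cell types could not be looked up, because the tables hold Ensembl identifiers and none of these was paired with a symbol in the reference tables.

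The IP level of the light chains Myl2, Myl3 and Myl4 fell in nano-TiO2 hearts, to between 0.52 and 0.58 of the sham level, while neither heavy chain nor Myl7 passed the test. Of the 6 chains, 3 were called lower and 0 higher at an adjusted p below 0.05 (limma on log2 of the value plus 1, adjusted by Benjamini-Hochberg over all 18566 genes). Over all genes tested, 12.0% were called lower and 24.0% higher, and the median change was 0.13 on the log2 scale. Levels are given as normalised IP signal, the deposited reads divided by the library's size factor and summed over the windows of a gene. In pooled whole hearts, fewer cells of a type and less RNA per cell cannot be told apart.

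Myh6 had 179678, 182480 and 206526 in nano-TiO2 libraries, against 167186, 208496 and 170443 in sham libraries. The highest Myh6 value was in a sham library, and the groups overlapped. Its log2 change was 0.06 ± 0.16 (SE; adjusted p = 0.794, limma). Myh7 had 186211, 195022 and 197554 in nano-TiO2 libraries, against 178912, 213663 and 187415 in sham libraries. The nano-TiO2 values of this chain lay inside the range of the sham values. Its log2 change was 0.00067 ± 0.15 (SE; adjusted p = 0.998, limma), with a 95% confidence interval of -0.35 to 0.35. For Myh6 the interval ran from -0.31 to 0.43.

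Myl2, the ventricular regulatory chain, had 52928.5, 40787.9 and 65618 in nano-TiO2 libraries, against 77663.4, 96943.7 and 97096.6 in sham libraries. Every nano-TiO2 value was below every sham value, and the share of all genes with such separation in IP level was not counted. Its log2 change was -0.79 ± 0.20 (SE; adjusted p = 0.0148, limma). Myl3, its essential partner, had 74298.3, 51629.9 and 73736.6 in nano-TiO2 libraries, against 118856, 111429 and 154434 in sham libraries. The groups were again separate, and the second nano-TiO2 library was lowest for both ventricular chains. The log2 change of Myl3 was -0.95 ± 0.20 (SE; adjusted p = 0.00694, limma), the largest fall among the 6 chains.

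Myl4, the atrial essential chain, had 25006.4, 22906.2 and 22259.5 in nano-TiO2 libraries, against 45287.6, 38060.1 and 39693.9 in sham libraries. The nano-TiO2 values lay close together, with the 3 sham values well above them. Its log2 change was -0.81 ± 0.14 (SE; adjusted p = 0.00287, limma). Myl7, the atrial regulatory chain, had 37662.5, 31042.3 and 43987.5 in nano-TiO2 libraries, against 37791.8, 47205.7 and 34152.7 in sham libraries. These groups overlapped, and the log2 change of Myl7 was -0.08 ± 0.18 (SE; adjusted p = 0.761, limma). Thus 1 atrial and 2 ventricular light chains fell, and the division between chains that fell and chains that did not pass the test did not follow the chamber in which the chain is known.

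**Figure D1:**
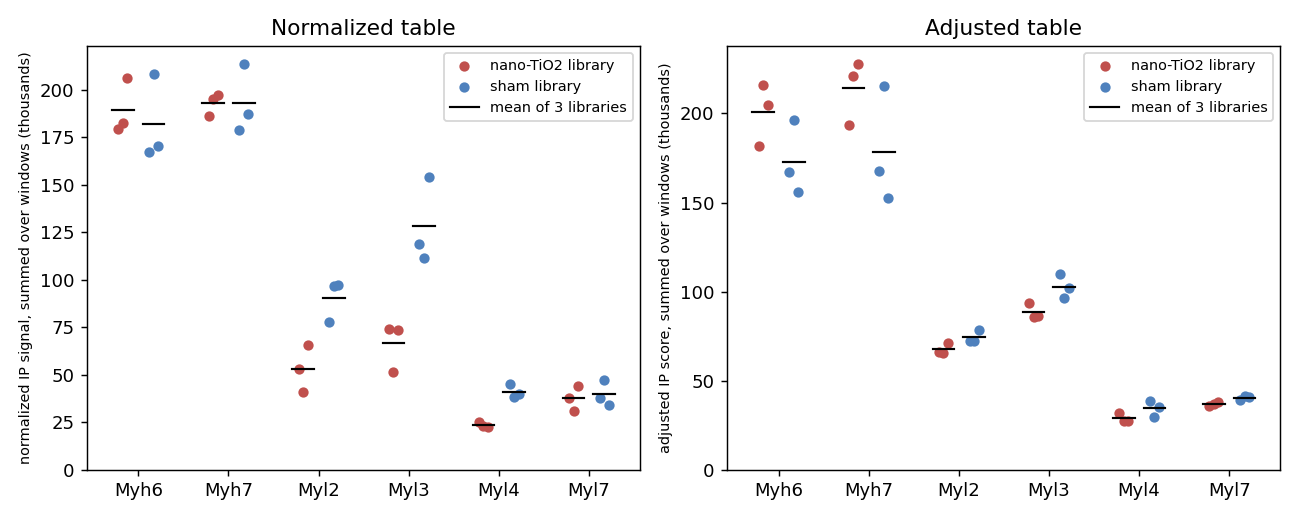
Normalised IP signal and adjusted score of each chain on linear axes that start at 0, with 1 point per library and nano-TiO2 left of sham. The nano-TiO2 points of Myl2, Myl3 and Myl4 lie below all their sham points in normalised signal, and those of Myh6, Myh7 and Myl7 overlap with sham.

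The calls of Myl2, Myl3 and Myl4 were made in each of the 6 fits that left out 1 library, and on recovered reads with edgeR and with DESeq2. They were lost when libraries were scaled to equal totals (adjusted p = 0.266 for Myl2, 0.123 for Myl3 and 0.236 for Myl4, limma), a scaling under which the median gene moved by 0.61 and Myh6 was called higher by 0.56 (adjusted p = 0.0360, limma). They were also lost after quantile normalisation, with log2 changes of -0.22 for Myl2, -0.38 for Myl3 and -0.39 for Myl4 (adjusted p = 0.334, 0.0682 and 0.0673 in that order, limma). Relative to the median of all genes, Myl3 stood at -1.08 with the deposited scaling, -1.07 with equal totals and -0.33 after quantile normalisation. With libraries scaled to equal totals outside the 4 most read genes, the falls were -0.52 for Myl2, -0.68 for Myl3 and -0.54 for Myl4, and all 3 passed the test. With a trend on gene length removed, Myh7 was called lower as well, by -0.70 (adjusted p = 0.0253, limma).

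**Figure D2:**
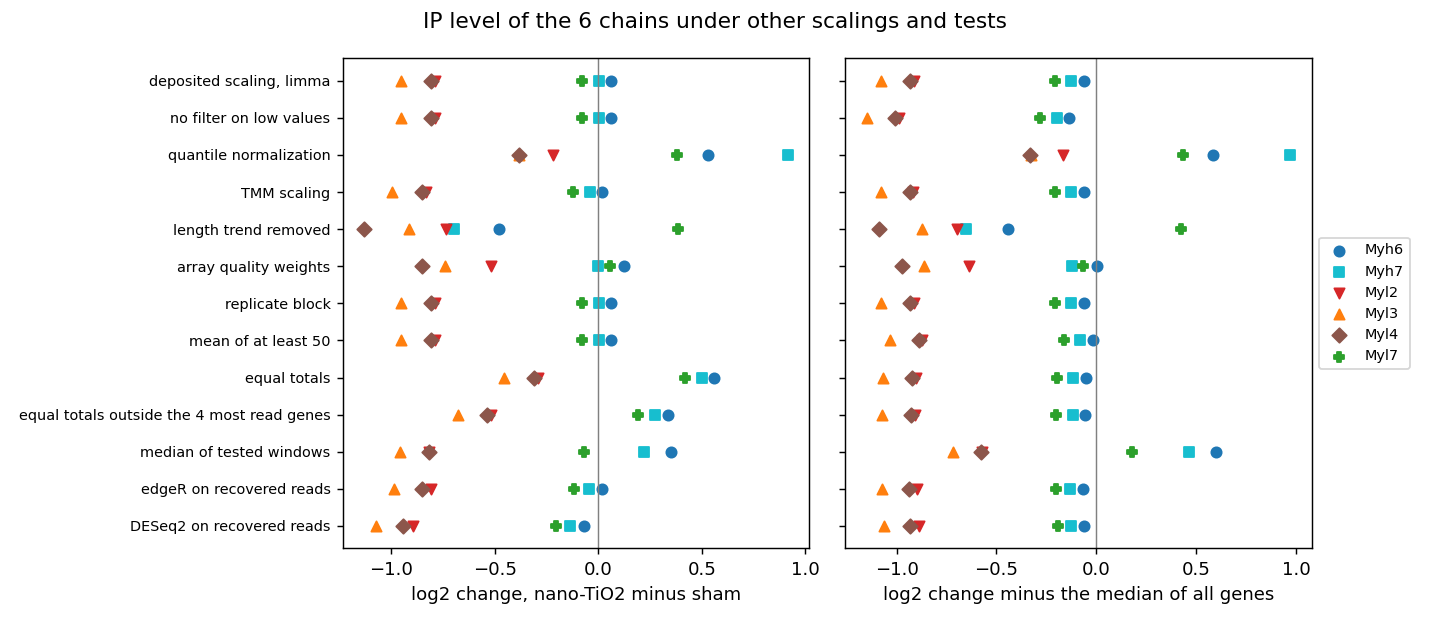
Log2 change of the IP level of the 6 chains, nano-TiO2 minus sham, under other scalings, filters and tests, as fitted and after the median change of all genes was subtracted. The light chains Myl2, Myl3 and Myl4 lie left of 0 in every row, and the heavy chains and Myl7 lie on either side of it.

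As a share of all reads in a library, a measure that uses no size factor, the chains divided differently. Myh6 took 0.874% ± 0.067 of reads in nano-TiO2 libraries and 0.592% ± 0.019 in sham libraries (SD, n = 3 each), and the groups did not overlap. Myh7 took 0.892% ± 0.080 in nano-TiO2 libraries and 0.630% ± 0.013 in sham libraries, also without overlap. Myl7 took 0.172% ± 0.019 in nano-TiO2 libraries and 0.129% ± 0.013 in sham libraries, and its groups were separate too. With libraries scaled to equal totals, which is the same measure, the median change of all genes was 0.61 on the log2 scale. Myh6 changed by 0.56, Myh7 by 0.50 and Myl7 by 0.42 on it, all below that median. How many of all genes had separate groups in share of reads was not counted. The chains that fell in normalised signal showed smaller shares of reads in nano-TiO2 libraries, but with overlapping groups. Myl2 took 0.243% ± 0.042 in nano-TiO2 libraries and 0.295% ± 0.025 in sham libraries. Myl3 took 0.304% ± 0.039 in nano-TiO2 libraries and 0.422% ± 0.097 in sham libraries. Myl4 took 0.108% ± 0.0090 in nano-TiO2 libraries and 0.135% ± 0.027 in sham libraries. Both measures differ by 1 factor per library only, so they hold the same ratios between chains.

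Ratios between chains within a library do not depend on its scaling, and 2 of them set light chains against a heavy chain. The summed IP signal per window of Myl2 and Myl3 was 2.95, 2.05 and 3.05 times that of Myh7 in nano-TiO2 libraries, against 4.74, 4.22 and 5.78 times in sham libraries. The groups were separate, with a log2 difference of -0.88 (two-sided exact permutation test, p = 0.1, adjusted p = 0.4). Among 24 such per-library values compared, 0.1 was the smallest p that 3 libraries against 3 allow. The 2 atrial light chains, Myl4 and Myl7, stood at 2.65, 2.17 and 2.65 times Myh6 in nano-TiO2 libraries, against 3.04, 2.91 and 2.68 times in sham libraries. That is a log2 difference of -0.21 (exact permutation p = 0.1, adjusted p = 0.4), and the gap between the highest nano-TiO2 and the lowest sham value was narrow. Both of these ratios were added after the levels of the chains had been seen. Their direction was therefore known beforehand, and they add no independent support to the falls of the light chains.

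The alpha to beta heavy chain ratio, a common measure of the maturity of ventricular muscle, did not separate the groups. Myh6 per window was 1.234, 1.197 and 1.337 times Myh7 in nano-TiO2 libraries, against 1.195, 1.248 and 1.163 times in sham libraries. The groups overlapped, and the log2 difference was 0.06 (exact permutation p = 0.4, adjusted p = 0.686). This ratio has an added uncertainty, since the genes are near-identical paralogs and reads from shared stretches may have been split between them.

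The ratio of the summed atrial to the summed ventricular light chains was higher in nano-TiO2 libraries, although Myl4 itself fell. Most of the atrial sum per window was Myl7, at 1680 against 174 for Myl4 (means over 6 libraries). The sum of Myl4 and Myl7 per window was 1.11, 1.27 and 1.16 times that of Myl2 and Myl3 in nano-TiO2 libraries, against 0.766, 0.862 and 0.539 times in sham libraries. Per window, all nano-TiO2 libraries had more signal from the atrial pair, and all sham libraries more from the ventricular pair. The log2 difference was 0.73 (exact permutation p = 0.1, adjusted p = 0.4). As a ratio of summed signal the ventricular pair was higher in all 6 libraries, with 0.493, 0.584 and 0.475 in nano-TiO2 libraries, against 0.423, 0.409 and 0.294 in sham libraries, and a log2 difference of 0.48. The groups were separate on both scales. The regulatory chains alone differed by nearly as much: Myl7 was 2.41, 2.58 and 2.27 times Myl2 in nano-TiO2 libraries, against 1.65, 1.65 and 1.19 times in sham libraries. These groups were separate, with a log2 difference of 0.71 (exact permutation p = 0.1, adjusted p = 0.4). The essential chains did not divide the groups in this way. Myl4 was 0.147, 0.194 and 0.132 times Myl3 in nano-TiO2 libraries and 0.167, 0.150 and 0.113 times in sham libraries. The log2 difference was 0.14 (exact permutation p = 0.6, adjusted p = 0.9). All of these light chain ratios are formed from the chain levels given above, so they are not separate evidence of a change.

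**Figure D3:**
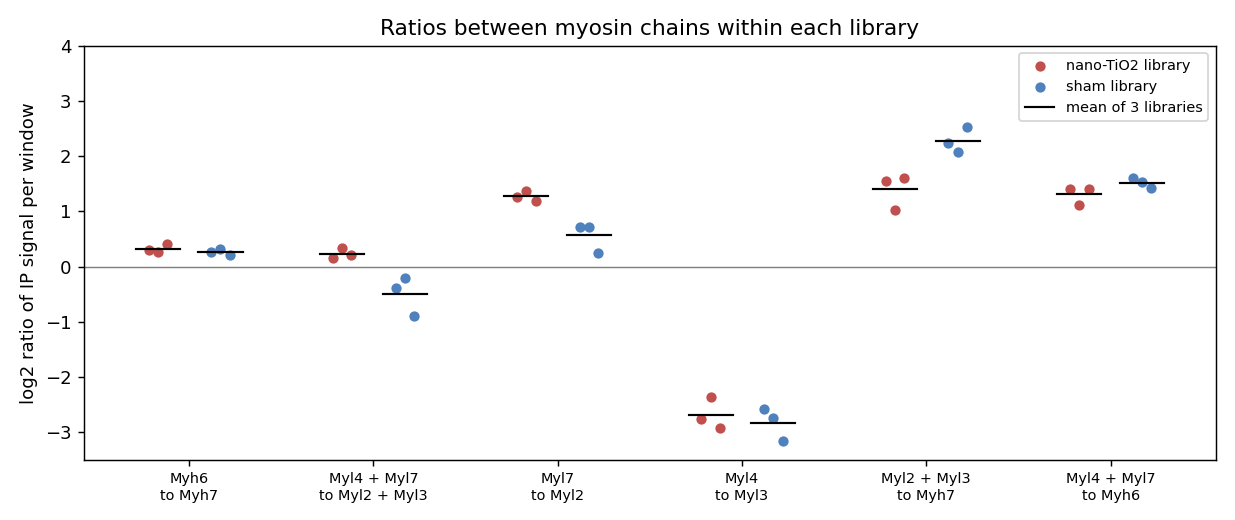
Log2 ratio of IP signal per window between myosin chains, with 1 point per library and nano-TiO2 left of sham. The ratio of atrial to ventricular light chains and that of Myl7 to Myl2 are higher in all nano-TiO2 libraries, the ratio of Myl2 and Myl3 to Myh7 is lower in all of them, and Myh6 to Myh7 overlaps.

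The authors also deposited an adjusted table, in which each normalised value was divided by 1 factor per gene and library and rounded. What the factor was made from is not stated. For Myl2, Myl3 and Myl4 the factor itself was lower in nano-TiO2 libraries. Of the 6 chains, 3 were called lower and 0 higher, where 19.3% of 13812 genes were called lower and 16.8% higher. The median change of the factor over all genes was -0.15 on the log2 scale. Myl3 had factors of 0.793, 0.602 and 0.855 in nano-TiO2 libraries, against 1.08, 1.15 and 1.51 in sham libraries. Its log2 change was -0.74 ± 0.23 (SE; adjusted p = 0.0316, limma). Myl2 changed by -0.65 (adjusted p = 0.0347, limma) and Myl4 by -0.55 (adjusted p = 0.0280, limma), both with separate groups. The share of all genes with separate groups in the factor was not counted. The factor of Myh7 was lower in every nano-TiO2 library, by -0.27 on the log2 scale, but did not pass the test (adjusted p = 0.105, limma). Leaving out the second nano-TiO2 library or the third sham library left 1 of the 3 calls (Myl4), and leaving out any other library left 0. Over all genes, 4979 were called with all libraries, 0 without the first or the third nano-TiO2 library, 1692 without the first sham library and 1428 without the second. The falls themselves stayed between -0.59 and -0.84 for Myl3, -0.50 and -0.78 for Myl2, and -0.50 and -0.60 for Myl4 in these fits.

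After that division, the changes of Myl2, Myl3 and Myl4 were smaller, and 0 of the 6 chains passed the test in either direction (limma). The median change of all genes was 0.17. Relative to it, Myl2 stood at -0.30, Myl3 at -0.38, Myl4 at -0.42 and Myl7 at -0.29. Over all 19361 genes tested, 0.0% were called higher and 0.0% lower, and 3592 genes, 4 of the chains among them (Myh6, Myh7, Myl3 and Myl4), had an unadjusted p below 0.05. Myl3 had adjusted scores of 93715, 85815 and 86266 in nano-TiO2 libraries, against 109761, 96635 and 101953 in sham libraries. These groups were still separate, with a log2 change of -0.21 ± 0.07 (SE; adjusted p = 0.188, limma). Myl2 had 66057, 65310 and 71176 in nano-TiO2 libraries, against 72071, 72465 and 78504 in sham libraries, a log2 change of -0.14 (adjusted p = 0.283, limma). Myl7 had 35722, 37089 and 38151 in nano-TiO2 libraries, against 39112, 41131 and 40572 in sham libraries, a log2 change of -0.12 (adjusted p = 0.310, limma). All 3 of these chains had separate groups at a small difference. How many of all genes had separate groups in adjusted scores was not counted.

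On the adjusted scale the heavy chains had positive changes, near the median change of all genes, which was 0.17. Relative to that median, Myh6 stood at 0.05 and Myh7 at 0.11. Myh6 had 181927, 215892 and 204769 in nano-TiO2 libraries, against 166913, 196121 and 155814 in sham libraries, a log2 change of 0.22 (adjusted p = 0.243, limma). Myh7 had 193404, 221234 and 227901 in nano-TiO2 libraries, against 167449, 215609 and 152436 in sham libraries, a log2 change of 0.28 (adjusted p = 0.242, limma). In both chains the second sham library reached into the nano-TiO2 range. Without that library 4 chains were called, Myh6 higher by 0.31, Myh7 higher by 0.42, Myl3 lower by -0.26 and Myl4 lower by -0.36 (adjusted p = 0.0406, 0.0277, 0.0418 and 0.0353 in that order, limma). That fit called 1878 of 19361 genes, against 0 with all libraries. The atrial to ventricular difference was nearly gone in adjusted scores, at 0.05 on the log2 scale with overlapping groups, and the Myl7 to Myl2 difference was 0.02.

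**Figure D4:**
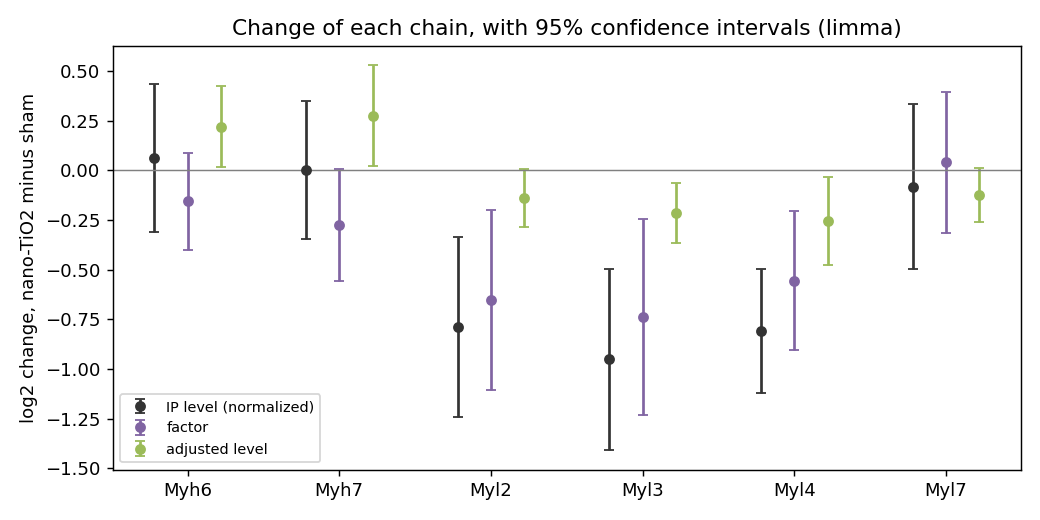
Log2 change of each chain, nano-TiO2 minus sham, with its 95% confidence interval, in normalised IP level, in the factor and in adjusted level. The intervals of Myl2, Myl3 and Myl4 lie below 0 in IP level and in the factor, and the changes in adjusted level are between -0.25 and 0.28.

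Window by window, the fall of Myl2, Myl3 and Myl4 was found in most windows that held signal. At an adjusted p below 0.05 (limma, over 250317 windows with a mean signal of at least 10), Myl4 had 42 of 46 tested windows called lower, Myl3 had 40 of 46 and Myl2 had 28 of 46. None of their tested windows was called higher. Untested windows, with less signal, numbered 139 in Myl4, 35 in Myl3 and 32 in Myl2. Over all windows tested, 7.32% were called lower and 3.88% higher. The median window changed by -0.83 in Myl4, -0.95 in Myl3 and -0.78 in Myl2. In Myl7, 0 of 18 windows were called, and none had an unadjusted p below 0.05. Windows of a gene share fragments and libraries, so they are not independent.

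In the chains that fell, the strongest window, which is part of the gene's summed signal, was also lower and adds no independent support. In Myl2 the window at position 801 had 3428, 2517 and 4259 in nano-TiO2 libraries, against 4535, 5957 and 5822 in sham libraries. In Myl3 the window at position 1551 had 2754, 1883 and 2817 in nano-TiO2 libraries, against 4662, 4393 and 5976 in sham libraries. The strongest Myl4 window, at 3301, had 1053, 882 and 933 in nano-TiO2 libraries, against 1856, 1590 and 1481 in sham libraries. The groups were separate in all 3 of these windows, and the share of all windows with separate groups was not counted. In Myl7 the strongest window, at 391, had 2716, 2294 and 3153 in nano-TiO2 libraries, against 2720, 3398 and 2439 in sham libraries, with overlap.

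The largest called changes in light chains were in windows of low signal. In Myl2 the largest was at position 1, with 36.8, 6.62 and 37.9 in nano-TiO2 libraries, against 69.3, 69.0 and 78.4 in sham libraries. That window held little of the Myl2 signal, and its log2 change was -1.71 (adjusted p = 0.0223, limma). Myl4 at position 201, another low window, had 10.0, 9.10 and 11.3 in nano-TiO2 libraries, against 38.7, 26.3 and 41.9 in sham libraries, a log2 change of -1.69 (adjusted p = 0.00668, limma). The next largest called changes were -1.26 in Myl2 at position 326 and -1.64 in Myl4 at position 276. In Myl3 the largest were -1.19 at position 1901 and -1.11 at position 1701.

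Myh6 differed from Myh7 in this view. In Myh6, 40 of 232 windows were called higher and 0 lower although the gene as a whole did not pass the test, and in Myh7 0 of 236 were called, with 11 below an unadjusted p of 0.05 (limma). The 2 largest called changes in Myh6 were in windows of low signal, but the calls were not confined to such windows. When only windows with a mean of at least 50 were tested, 30 of 166 Myh6 windows were called higher. That fit called 22337 of 57169 windows over all genes, in either direction. The largest change was at position 6402, with 24.5, 23.2 and 18.5 in nano-TiO2 libraries, against 8.995, 4.38 and 4.05 in sham libraries (log2 change 1.82, adjusted p = 0.0131, limma). The strongest Myh6 window, at 877, showed no such gap, with 6411, 5993 and 8244 in nano-TiO2 libraries, against 6316, 8930 and 6506 in sham libraries. The next largest called change in Myh6 was 1.77 at position 5377. In Myh7 the strongest window, at 392, had 3657, 3217 and 4718 in nano-TiO2 libraries, against 3758, 5456 and 3938 in sham libraries, again with overlap. Changes were positive in 206 of the 232 Myh6 windows and in 179 of the 236 Myh7 windows. Whether the number of called windows differs between Myh6 and Myh7 was not tested.

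The number of called windows depended on single libraries. Of 150 in the 6 chains, 78 were called without the first nano-TiO2 library, 87 without the third, 53 without the first sham library and 80 without the third. The same fits called 12114 to 20088 windows over all genes, against 28052. Myh6 had 6 without the first nano-TiO2 library, and Myl2 had 0 without the second sham library, whereas Myl3 had at least 19 in each of these fits and Myl4 at least 9. After quantile normalisation 109 Myh6 and 103 Myh7 windows were called higher, against 0 Myl2, 2 Myl3 and 4 Myl4 windows called lower. That fit called 11004 of 250317 windows in all, against 28052 with the deposited scaling. In adjusted scores 0 windows of the chains were called, over a background of 0.00118% higher and 0.00197% lower. Of tested windows, 168 of 233 in Myh6 and 174 of 237 in Myh7 had an unadjusted p below 0.05 (limma). So did 24 of 46 in Myl3, 24 of 46 in Myl4, 4 of 46 in Myl2 and 0 of 18 in Myl7. The share of all windows below that threshold was not counted, and windows of a gene are not independent.

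Along both heavy chains the change grew with the order of the windows, and along the light chains it stayed nearly level in runs with a mean signal of at least 10. Each gene was divided into equal runs of windows in the order of their starts, 12 for the heavy chains and Myl4 and 6 for the other light chains, a description chosen after the profiles had been seen. In Myh6 the log2 ratio of nano-TiO2 to sham signal was -0.0048 in run 1 and 0.72 in run 12. In Myh7 it was -0.18 in run 1 and 0.50 in run 12. Over single windows, Spearman's rho between window order and change was 0.56 in 232 Myh6 windows and 0.90 in 236 Myh7 windows, given as a description because neighbouring windows share fragments. The same ratio in Myl3 stayed between -0.93 and -0.96 in all runs with a mean signal of at least 10, and in Myl7 between -0.06 and -0.10. Runs below that signal were higher in nano-TiO2 libraries, except run 12 of Myl4 and the empty run 1 of Myl7: run 5 of Myh7 averaged 3.73, 2.63 and 3.83 per window in nano-TiO2 libraries, against 1.46, 1.59 and 1.72 in sham libraries, and run 4 of Myl3 averaged 0.554 ± 0.19 in nano-TiO2 libraries and 0.228 ± 0.10 in sham libraries (SD, n = 3 each). Which end of the transcript a low window start stands for was not established.

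Values by library show how wide this pattern was. Run 12 of Myh6 averaged 33.1, 41.3 and 18.7 per window in nano-TiO2 libraries, against 19.0, 15.3 and 22.1 in sham libraries. Run 12 of Myh7 averaged 185, 231 and 105 in nano-TiO2 libraries, against 132, 87.2 and 149 in sham libraries. In both genes the third nano-TiO2 library lay within the sham range, so the groups overlapped there. Most heavy chain signal lay in early windows: the first 25% of windows held 63.0% ± 4.7 of Myh6 signal in nano-TiO2 libraries and 66.9% ± 2.3 in sham libraries (SD, n = 3 each; exact permutation p = 0.3, adjusted p = 0.686). For Myh7 that share was 69.2% ± 7.1 in nano-TiO2 libraries and 74.6% ± 4.8 in sham libraries (exact permutation p = 0.4, adjusted p = 0.686). The last 25% held 10.2% ± 3.5 of Myh7 signal in nano-TiO2 libraries and 7.54% ± 2.2 in sham libraries (exact permutation p = 0.3, adjusted p = 0.686).

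**Figure D5:**
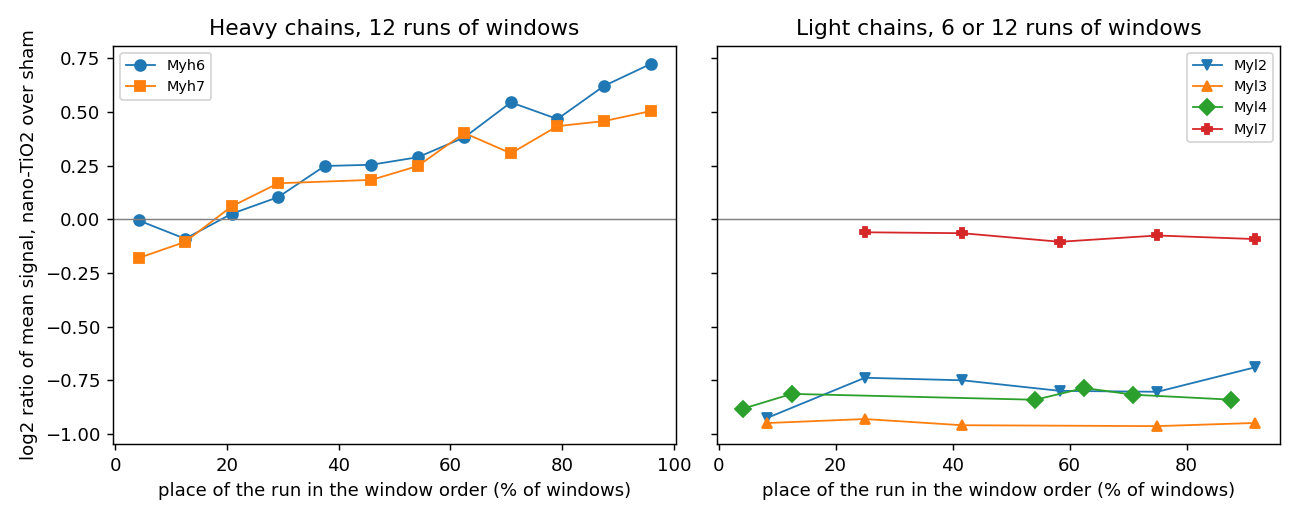
Log2 ratio of mean nano-TiO2 to mean sham IP signal in equal runs of windows along each chain, against the place of the run in the window order. Runs with a mean signal below 10 are left out; the heavy chains climb from near or below 0 in the first run to 0.72 in Myh6 and 0.50 in Myh7, and Myl7 stays near 0.

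Of 18 shares compared (first 25%, last 25% and the 10% highest windows of each chain), 2 had separate groups. The 10% highest windows of Myh6 held 54.1%, 52.7% and 58.0% of its signal in nano-TiO2 libraries, against 58.7%, 61.6% and 59.2% in sham libraries (exact permutation p = 0.1, adjusted p = 0.4). For Myl3 the share was 31.0% ± 0.20 in nano-TiO2 libraries and 30.7% ± 0.12 in sham libraries, a far smaller gap. Over all 18487 genes, groups were separate in 13.3% for the first 25%, 13.4% for the last 25% and 16.1% for the highest windows, so 2 of 18 is near the background.

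Set against the mean change of its own gene, 2 windows of the chains stood apart (limma diffSplice, adjusted over 249423 windows), where 0.0373% of windows were called higher and 0.00922% lower. One was Myh7 at position 8492, with 21.2, 29.8 and 7.25 in nano-TiO2 libraries, against 12.6, 0 and 12.2 in sham libraries (relative log2 change 1.48, adjusted p = 0.00211). Its groups overlapped, and the second sham library was at 0. The other was the Myl4 window at position 201 given above, which fell by 0.84 more than its gene (adjusted p = 0.0361). Without the first nano-TiO2 library 0 windows of the chains were called, and 87 over all genes.

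In heavy chain windows with hardly any signal, sums were larger in nano-TiO2 libraries. Summed over the 37 Myh6 windows with a mean below 10, normalised signal was 152, 192 and 119 in nano-TiO2 libraries, against 74.7, 78.9 and 82.4 in sham libraries, a ratio of 1.96. In the 108 such Myh7 windows it was 231, 197 and 188 in nano-TiO2 libraries, against 112, 104 and 131 in sham libraries, a ratio of 1.78. In both chains the groups were separate, although the whole genes overlapped. How many of all genes had separate groups in such sums was not counted. In Myl2 the same sum had a ratio of 1.06 with overlapping groups, and in Myl3 one of 0.994. In the 139 such Myl4 windows it was 215, 406 and 172 in nano-TiO2 libraries, against 201, 171 and 115 in sham libraries, a ratio of 1.63 with overlapping groups. Myl4 thus leaned the way of the heavy chains, and a difference between chains in these sums was not tested. These sums were added up after the profiles had been seen and were given no test. In RefSeq the Mhrt antisense transcript, Mir208b and Gm31251 overlap Myh7, and Mir208a, Cmtm5 and Gm52092 overlap Myh6. Among light chains, Ccdc63 overlaps Myl2, and Cdc27, Gm11661, Gm11663, Gm11665 and Gm7020 overlap Myl4. No overlapping gene is listed for Myl3 or Myl7. Whether counting used strand is not stated, so reads of overlapping genes cannot be told apart.

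Levels per window, which allow for gene length, placed Myl7 highest at 1680 ± 262 (mean ± SD over 6 libraries). Next came Myl3 at 1202 ± 465, Myl2 at 921 ± 296, Myh6 at 691 ± 66.0 and Myh7 at 561 ± 35.1, with Myl4 lowest at 174 ± 54.0. Myl7 was above Myl3 in 5 of 6 libraries and Myl2 above Myh6 in 5 of 6. The means of Myl2 and Myh6 differed by less than the SD of Myl2, and those of Myl7 and Myl3 by slightly more than the SD of Myl3. Myl3 stood above Myl2, Myh6 above Myh7, and Myh7 above Myl4 in all 6. Myl4 had many near-empty windows: of its 185 windows 46 had a mean of at least 10, and over the tested windows alone its median signal was 903 ± 285. On that second scale Myl3 had 2583 ± 998, Myl7 had 2202 ± 368, Myl2 had 854 ± 288, Myh7 had 425 ± 66.5 and Myh6 had 161 ± 32.8. There the order of neighbours depended on the group: Myl3 was above Myl7 in 0 of 3 nano-TiO2 and 3 of 3 sham libraries, and Myl4 above Myl2 in 2 of 3 nano-TiO2 and 1 of 3 sham libraries. Myh6 was above Myh7 by mean and below it by median, and its 10% highest windows held 52.7% or more of its signal in every library.

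Across the 6 libraries, the light chains that fell varied together. Pearson's r of log2 IP level was 0.93 between Myl2 and Myl3, 0.89 between Myl3 and Myl4 and 0.80 between Myl2 and Myl4. The heavy chains followed each other at 0.89, and Myl7 was closer to Myh6 (0.74) than to its atrial partner Myl4 (0.13). These values are a description over 6 libraries that share the group difference and the scaling. The genes outside the set most like each chain reached 0.962 to 0.999 among 12227 genes, and they could not be named, since their identifiers were not paired with symbols.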

How the data were processed

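The 6 anti-m6A IP libraries (3 nano-TiO2, 3 sham) were grouped by their titles. The submitters' processing notes list the genome build GRCm39 and the tools DESeq2 1.34.0, Salmon 1.5.2 and HISAT2 2.2.1 without saying what each did. In the deposited normalized table each value is the IP signal of 1 window, a read count divided by 1 size factor per library: 100% of values were whole multiples of 1 step within 0.0001. Scores in the deposited adjusted table are rounded, the normalized values divided by 1 factor per gene and library, with 0 exceptions in 162014 pairs with reads. The filtered table was identical to the normalized one.

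A gene's level is the sum of its windows. Features averaging 10 or more were tested two-sided with limma 3.58.1 (R 4.3.3) after a log2(value + 1) transform of the deposited values, and p-values were adjusted by Benjamini-Hochberg over every feature tested. On the log2(value + 1) scale fold changes of low features are understated. Since the tables are not raw counts, edgeR 4.0.16 and DESeq2 1.42.0 on the recovered reads were alternatives; they called 6932 and 7316 genes, against 6676 with limma. Ratios and shares were compared with exact permutation tests (SciPy 1.17.1). Tests were tried on simulated data. PCR copies are not independent molecules, so read totals overstate precision.

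The chains and lists were chosen with earlier results of these data known. By rule, all 6 chains were named, with the strongest window of each and its 2 largest called changes where it had any. Lists of other myosin genes and of cell type markers could not be used, because 0 of 48505 identifiers were paired with a symbol. Same-numbered libraries of the groups correlated at -0.37, 0.18 and 0.02 in their deviations of IP level, so these correlations gave no sign of pairing there. Adjusted scores were not checked in this way. With the replicate number as a block, their SEs were smaller for every chain, such as 0.035 against 0.069 for Myl3. That fit called 0 of 19361 genes.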

Additional observations from a re-analysis of the deposited data

How the results depend on the processing

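The falls of Myl2, Myl3 and Myl4 kept their direction under all 20 alternatives and their calls under 18 of them. After quantile normalisation 0 chains were called, where 5896 of 18566 genes were. With equal totals 1 chain (Myh6) was called, where 8174 genes were. The other chains changed sign between settings. Myh6 IP level was positive under 17 of 20 alternatives, up to 0.53 after quantile normalisation and 0.56 with equal totals, but -0.48 with the length trend removed, -0.072 by DESeq2 and -0.00035 to 0.16 without 1 library. Myh7 was 0.92 after quantile normalisation, 0.50 with equal totals and 0.27 with equal totals outside the 4 most read genes, but -0.70 with the length trend removed, -0.043 by TMM scaling, -0.044 by edgeR, -0.14 by DESeq2, -0.00019 with array weights and -0.053 to 0.075 without 1 library. Myl7 was 0.38 after quantile normalisation and with the length trend removed, 0.054 with array weights, 0.42 with equal totals, 0.19 with equal totals outside the 4 most read genes and -0.20 to 0.050 without 1 library. Adjusted levels of Myh6 and Myh7 were -0.057 and -0.030 with the length trend removed. Calls on adjusted level numbered 4 with array weights and 0 to 4 without 1 library. Over all 19361 genes these fits called 5011 with array weights and 0 to 1878 without 1 library. Calls on the factor numbered 0 after centring and 0 to 1 without 1 library, and the Myl7 factor ranged from -0.066 to 0.17. Over all 13812 genes the factor fits called 3595 after centring and 0 to 4708 without 1 library. The fit with the replicate number as a block called 3 chains in IP level and 0 in the factor. It also called 163 windows in IP level, 1 within genes and 4 in adjusted level. Over all genes it called 6415 of 18566 in IP level and 1793 of 13812 in the factor. Over all windows it called 31744 of 250317 in IP level, 105 of 249423 within genes and 125 of 253327 in adjusted level. The correlations of same-numbered libraries gave no sign of pairing in IP level, and adjusted scores were not checked in this way. With the block, SEs of IP level were smaller for every chain except Myl7, such as 0.15 against 0.20 for Myl3. For Myl7 the SE was 0.19 against 0.18. Called windows over all genes rose from 28052 to 31744 in IP level, and called genes fell from 6676 to 6415. Without 1 library, 53 to 115 windows of the chains were called in IP level, 0 to 2 within genes and 0 to 4 in adjusted level. Over all genes those fits called 12114 to 21647 windows in IP level, 87 to 168 within genes and 2 to 30 in adjusted level. Within genes, 5 windows of the chains were called at a mean of at least 1 and 1 at a mean of at least 50. Over all genes those fits called 648 and 10 windows. With adjusted values the log2 difference was -0.056 for Myh6 to Myh7, 0.046 for atrial to ventricular light chains, 0.016 for Myl7 to Myl2, -0.46 for Myl2 and Myl3 to Myh7 and -0.35 for Myl4 and Myl7 to Myh6. With medians of tested windows it was 0.13 for Myh6 to Myh7 and -0.64 for Myl4 and Myl7 to Myh6, which was -0.47 as a ratio of sums. Shares with separate groups numbered 0 for first and last 10%, 1 when only tested windows were used, and 2 to 8 without 1 library. No count over all genes was made under these settings, and separation is easier to reach with fewer libraries. The cause of these differences was not tested. With 3 libraries a group, the exact tests cannot pass 0.05, and the value of an input level, which would set abundance apart from methylation, was not used here.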
